A study of Homo sapiens with 4 samples.

Results

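The transcripts of 30 genes of cholesterol and fatty acid synthesis were followed in 2 pancreatic cancer cell lines, without radiation and after a dose of 10 Gy of X-rays. The genes were picked by symbol from the 58174 genes of the deposited table, and all 30 were found. They comprise 18 sterol enzymes, 6 genes grouped here as regulators (INSIG1, INSIG2, SREBF1, SREBF2 and SCAP with the sterol carrier STARD4) and 6 fatty acid enzymes. SW1990 and PANC-1 are established human lines, used at passages 14 to 16. SW1990 cells were kept in 1640 medium and PANC-1 cells in DMEM, each with 10% FBS, so that the line and its medium cannot be told apart. Each line gave 1 unirradiated and 1 irradiated library, 4 libraries in all, and the interval between radiation and RNA extraction is not given in the sources used here. The SW1990 libraries held 17939210 counts before and 18388969 after radiation, and the PANC-1 libraries 23451153 and 20154644. With 1 library per condition no radiation difference has a replicate check, and every interval given for a change covers counting error at 95% only.

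Cholesterol is built from acetyl-CoA by the mevalonate pathway, which makes isoprenoid units, joins them into squalene, closes the rings to lanosterol and trims lanosterol to cholesterol. Fatty acids are built from the same acetyl-CoA by a carboxylase, a synthase, an elongase and a desaturase. Both sets of genes are switched on by the SREBP transcription factors, which are made as membrane proteins, carried by SCAP to the Golgi for cleavage when sterols are low, and held in the endoplasmic reticulum by INSIG proteins when sterols are high. SREBP-2, the product of SREBF2, is best known for sterol genes and SREBP-1, the product of SREBF1, for fatty acid genes. Many pancreatic tumors keep lipid synthesis active, and membranes need both products.

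The libraries carried the keratins of ductal carcinoma cells. KRT19, an epithelial keratin, had 224 and 306 FPKM in unirradiated and irradiated SW1990 cells and 146 and 241 FPKM in PANC-1 cells, where FPKM means fragments per kilobase of transcript, adjusted for library size. EPCAM, an epithelial adhesion molecule, was at 217 and 218 FPKM in SW1990 cells but at 2.28 and 2.81 FPKM in PANC-1 cells. Vimentin (VIM), a mesenchymal filament protein, took the opposite course, with 0.626 and 0 FPKM in SW1990 and 1627 and 1650 FPKM in PANC-1 cells. Of the other fibroblast genes, COL1A1 had 103 and 165 counts in SW1990 and 965 and 1315 counts in PANC-1 cells, and COL1A2 and DCN were listed at 0 in all 4 libraries. The liver gene APOA1 and the fat cell gene ADIPOQ were also at 0 throughout, while ALB, the other liver gene, had 4 and 12 counts in SW1990 and 0 in PANC-1 cells, and PLIN1, the other fat cell gene, had between 3 and 13 counts per library. The leukocyte gene PTPRC and the endothelial gene PECAM1 had at most 2 counts, and CDH5, the other endothelial gene, had 8 counts in unirradiated SW1990 cells and 0 in the other libraries.

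SREBPs bind a short sterol regulatory element and usually act beside the factors NF-Y, which binds CCAAT, and Sp1, which binds GGGCGG. RefSeq promoter windows (GRCh38.p14, from 250 bases before to 50 after the start of a gene) were matched for 26 of the 30 genes. The 4 unmatched genes were ACAT2, FDFT1, SQLE and FASN. A sterol regulatory element spelled TCACNCCAC was searched on both strands and found in 1 of the 26 windows, that of SREBF2, against 1.13% of 35116 windows of all genes. CCAAT stood in 17 of the 26 windows, against 34.6% of all windows. GGGCGG stood in 23 of them, against 45.0% of all windows. The motifs can share bases at their edges and were counted separately, and a match is a description of the sequence and not of binding. The windows below show the match in SREBF2 and CCAAT matches of EBP, SCD, TM7SF2 and MVK, which are among the 6 genes past 1.5-fold after radiation in a line. Capitals mark the motif, with 10 bases on each side, printed 5′ to 3′ on the strand that carries it.
SREBF2, plus strand, chr22:41832962-41832990, 133 bases before the start: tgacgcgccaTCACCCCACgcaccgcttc
SCD, plus strand, chr10:100346994-100347018, 229 bases before the start: ttgcgccgagCCAATggcaacggca
SCD, plus strand, chr10:100347037-100347061, 186 bases before the start: ttcccttcggCCAATgacgagccgg
EBP, minus strand, chrX:48521607-48521631, 191 bases before the start: ggatccgtagCCAATctgcatcgag
EBP, minus strand, chrX:48521728-48521752, 70 bases before the start: ccgctcccaaCCAATagacactctc
EBP, minus strand, chrX:48521768-48521792, 30 bases before the start: acggagcgagCCAATggtgaagcga
TM7SF2, minus strand, chr11:65111788-65111812, 74 bases before the start: agcacaccagCCAATcggcgctcgg
MVK, minus strand, chr12:109573738-109573762, 46 bases before the start: ttcaggccagCCAATcagagcgcgc
Distances are from the RefSeq start, which for each gene shown lies downstream of the start in the deposited coordinates. The sites shown for EBP and MVK therefore fall inside these 2 genes by the deposited coordinates, and those of SREBF2, SCD and TM7SF2 lie before them. The MVK window held 5 CCAAT matches, of which the nearest to the start is shown. The windows of INSIG2 and ACSS2, the other members past 1.5-fold, held 0 matches to CCAAT.

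Nearly all of the pathway was expressed in both lines. In SW1990 cells the 30 genes lay between 3.94 and 104 FPKM without radiation and between 2.48 and 151 FPKM after it. FASN, the fatty acid synthase, was the most abundant per length in both of these libraries, at 104 and 151 FPKM. In PANC-1 cells the highest member was SCD, the desaturase that turns saturated into monounsaturated fatty acids, at 258 FPKM without and 109 FPKM with radiation. STARD4, a soluble carrier of cholesterol between membranes, was the lowest in PANC-1 cells, at 0.799 and 0.466 FPKM, with 25 and 40 counts. Among sterol enzymes FDFT1, the squalene synthase, led in SW1990 cells with 46.4 and 57.8 FPKM, and DHCR7, which carries out a late reduction to cholesterol, led in PANC-1 cells with 70.7 and 41.9 FPKM. The median sterol enzyme stood at 16.0 and 16.6 FPKM in SW1990 and at 15.9 and 14.4 FPKM in PANC-1 cells, so that the lines were close in this summary and differed in single genes.

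**Figure D1:**
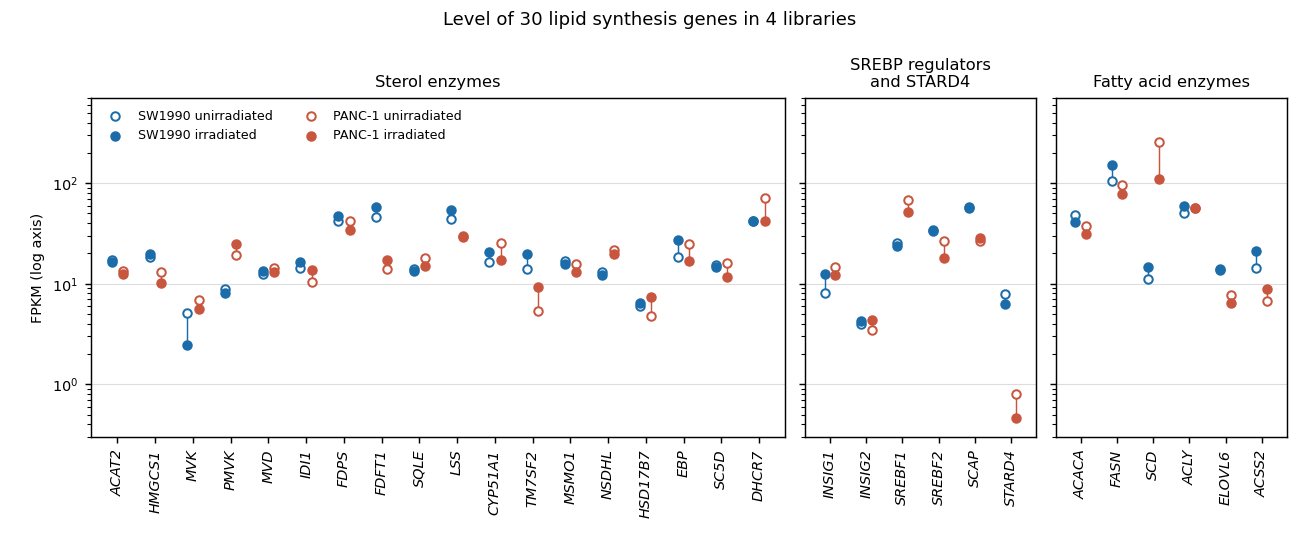
FPKM of each gene (log axis) in the 4 libraries, with open circles for unirradiated and filled circles for irradiated cells, blue for SW1990 and red for PANC-1, and 1 library per circle. SCD of PANC-1 cells stands above all other points at 258 FPKM without radiation, and STARD4 of PANC-1 cells stands below all others.

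The 30 genes together held 0.278% of the counts on genes in unirradiated and 0.331% in irradiated SW1990 cells. In PANC-1 cells they held 0.414% without radiation and 0.294% with it. The share was thus larger in the irradiated library of SW1990 and smaller in that of PANC-1. In bulk RNA fewer cells that express a gene and less RNA per cell cannot be told apart. SCD was 41.4% of all member counts in unirradiated PANC-1 cells and 24.9% in irradiated ones, against 2.66% and 2.90% in SW1990 cells. Without SCD the shares were 0.271% and 0.321% in SW1990 and 0.243% and 0.221% in PANC-1 cells, so the direction in each line was the same without this gene, and its size in PANC-1 cells was smaller.

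To find genes that differed after radiation, the irradiated and unirradiated libraries of each line were compared by a read test, edgeR's exactTest at dispersion 0 with TMM scaling, on genes with at least 1 FPKM in the pair. Calls needed more than a 2-fold change with a q-value under 0.001, and a second count was made above 1.5-fold with the same q-value. The test compares the libraries and not the conditions. In SW1990 cells 652 of 15731 genes were called, or 4.14%, and 1456 passed 1.5-fold, or 9.26%, of which 5.22% of all genes were higher and 4.04% lower. In PANC-1 cells 719 of 15159 genes were called, or 4.74%, and 1790 passed 1.5-fold, or 11.8%, with 6.2% higher and 5.61% lower. Of the 30 members, all tested in SW1990 cells, 1 was called (3.33%) and 3 passed 1.5-fold (10%). In PANC-1 cells 29 were tested, since STARD4 was under 1 FPKM in both libraries, and 1 was called (3.45%) and 3 passed 1.5-fold (10.3%). These shares were near those of all genes, so the pathway did not carry more large differences than the transcriptome did.

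The smaller differences leaned to opposite sides. After radiation 24 members were higher and 6 lower in SW1990 cells, and the median log2 change was 0.15, against -0.01 for all genes tested, of which 49.4% were higher. In PANC-1 cells 9 members were higher and 20 lower, with a median of -0.22, against 0.00 for all genes tested, of which 50.3% were higher. The counting interval lay above 0 for 17 and below 0 for 2 of the 30 members in SW1990 cells. In PANC-1 cells it lay above 0 for 7 and below 0 for 18 of the 29 members. The share of all genes whose interval leaves out 0 was not counted, so the interval counts carry no comparison. Of the members tested in both lines, 16 of 29 were higher in SW1990 and lower in PANC-1 cells, or 55.2%, against 22.3% of 13228 genes. The count depended on the measure, since the fold changes of the deposited FPKM values put 9 of 29 members there, or 31.0%, against 18.3% of all genes, with 17 members higher and 13 lower in SW1990 cells.

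**Figure D2:**
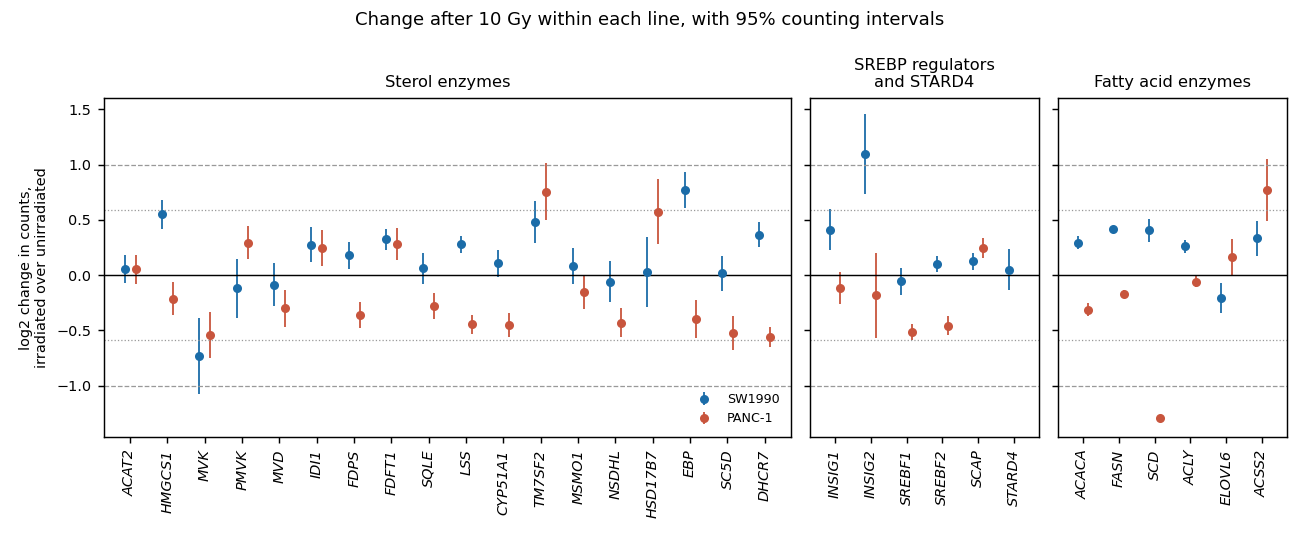
The log2 change in TMM-scaled counts, irradiated over unirradiated, for each tested gene in SW1990 (blue) and PANC-1 (red), with 95% counting intervals. Dotted lines mark 1.5-fold and dashed lines 2-fold. INSIG2 in SW1990 and SCD in PANC-1 cells pass the dashed lines, and many sterol enzymes sit just above 0 in SW1990 and below 0 in PANC-1 cells.

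Among the 18 sterol enzymes, 14 were higher and 4 lower in SW1990 cells, with a median log2 change of 0.10. The same enzymes were higher in 6 and lower in 12 cases in PANC-1 cells, with a median of -0.29. In neither line was an enzyme of this group called at 2-fold. EBP, the sterol isomerase that shifts the ring double bond, went from 491 to 842 counts in SW1990 cells, a log2 change of 0.77 (0.61 to 0.94). In PANC-1 cells EBP had 688 and 471 counts, a log2 change of -0.40 (-0.57 to -0.23). EBP (ENSG00000147155, chromosome X from 48521158 to 48528716, plus strand) was the only sterol enzyme past 1.5-fold and higher in SW1990 cells by counts, while from FPKM (18.4 and 27.1) its change there was 0.56, under 1.5-fold. MVK, the mevalonate kinase early in the pathway, had 192 and 116 counts in SW1990 cells, a log2 change of -0.73 (-1.08 to -0.39) that passed 1.5-fold. It was also lower in PANC-1 cells, with 491 and 304 counts and a log2 change of -0.54 (-0.75 to -0.33), short of 1.5-fold. MVK (chromosome 12 from 109573255 to 109598117) overlaps the expressed gene MMAB on the opposite strand.

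TM7SF2, a reductase of the sterol ring that shares its reaction with LBR, was higher in both lines. Its counts were 394 and 550 in SW1990 cells, a log2 change of 0.48 (0.29 to 0.67), and 212 and 322 in PANC-1 cells, a log2 change of 0.75 (0.50 to 1.01), which passed 1.5-fold. This gene (chromosome 11 from 65111845 to 65116384) overlaps VPS51 on the same strand, and reads of the pair cannot be told apart with certainty. HSD17B7, a ketoreductase of the demethylation steps, had 171 and 229 counts in PANC-1 cells, a log2 change of 0.57 (0.28 to 0.87), against 0.03 (-0.29 to 0.34) in SW1990 cells. DHCR7 had 1103 and 1427 counts in SW1990 cells, a log2 change of 0.37 (0.25 to 0.48), and 2836 and 1735 counts in PANC-1 cells, a log2 change of -0.56 (-0.65 to -0.47). HMGCS1, the synthase that feeds mevalonate synthesis, had 784 and 1152 counts in SW1990 cells, a log2 change of 0.55 (0.42 to 0.68). In PANC-1 cells HMGCS1 had 841 and 653 counts, a log2 change of -0.22 (-0.37 to -0.07). LSS, which closes the sterol rings, had log2 changes of 0.28 in SW1990 and -0.45 in PANC-1 cells. CYP51A1, the lanosterol demethylase, gave 0.11 and -0.45, and SC5D, a late desaturase, gave 0.01 and -0.52.

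FDFT1 was higher in both lines, by log2 changes of 0.32 (0.23 to 0.41) and 0.28 (0.13 to 0.43), and so was IDI1, the isomerase of isoprenoid units, by 0.28 (0.12 to 0.43) and 0.24 (0.08 to 0.40). ACAT2, the thiolase that joins acetyl-CoA units, stood at 0.06 (-0.07 to 0.18) and 0.05 (-0.08 to 0.18), intervals that hold 0 in each line. FDPS, the farnesyl diphosphate synthase, had 0.18 in SW1990 and -0.36 in PANC-1 cells, and SQLE, the squalene epoxidase, had 0.06 and -0.28. The remaining members of this group lay between -0.12 (PMVK) and 0.08 (MSMO1) in SW1990 cells and between -0.43 (NSDHL) and 0.29 (PMVK) in PANC-1 cells. In all, 9 members overlap another expressed gene, among them ACAT2, IDI1, FDPS, DHCR7 and SREBF1 on the opposite strand, and whether the counting used strand is not given in the sources used here. HSD17B7, FDPS, CYP51A1 and SCD have pseudogene copies in the genome, and how reads shared with them were assigned is also not given.

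Of the regulators, 5 of 6 were higher after radiation in SW1990 cells, with a median log2 change of 0.11, and 4 of the 5 tested were lower in PANC-1 cells, with a median of -0.18. From FPKM the SW1990 median was 0.01, with 3 of the 6 higher, and the PANC-1 median was -0.25. INSIG2, which retains SCAP in the endoplasmic reticulum, was the member called in SW1990 cells, with 94 counts without and 201 with radiation, a log2 change of 1.09 (0.73 to 1.46). Its FPKM values in the same libraries were 3.94 and 4.29, a log2 change of 0.12, so the call rests on the counts. In PANC-1 cells INSIG2 had 131 and 104 counts, a log2 change of -0.18 (-0.57 to 0.20). INSIG2 (ENSG00000125629, chromosome 2 from 118088452 to 118110997) is the least abundant regulator in SW1990 cells and its intervals are wide. INSIG1, its relative and itself a target of the SREBPs, had 422 and 562 counts in SW1990 cells, a log2 change of 0.41 (0.22 to 0.59), and 852 and 707 counts in PANC-1 cells, a log2 change of -0.12 (-0.27 to 0.03).

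SREBF2 had 3091 and 3319 counts in SW1990 cells, a log2 change of 0.10 (0.03 to 0.17), and 2919 and 1918 counts in PANC-1 cells, a log2 change of -0.46 (-0.54 to -0.37). SREBF1 had 1167 and 1126 counts in SW1990 cells, a log2 change of -0.06 (-0.18 to 0.06), and 3858 and 2435 counts in PANC-1 cells, a log2 change of -0.51 (-0.59 to -0.44). Both transcription factor genes were thus lower in irradiated PANC-1 cells, short of 1.5-fold, and nearly level in SW1990 cells. SCAP was slightly higher in both lines, with 2792 and 3056 counts in SW1990 cells (0.12, 0.05 to 0.20) and 1895 and 2023 counts in PANC-1 cells (0.24, 0.15 to 0.34). STARD4 had 461 and 479 counts in SW1990 cells, a log2 change of 0.05 (-0.14 to 0.24), and -0.33 from FPKM (7.93 and 6.31).

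SCD was the member called in PANC-1 cells. It had 39948 counts without and 14667 with radiation, a log2 change of -1.30 (-1.32 to -1.27) or 0.407 of the unirradiated level. FPKM gave the same picture, 258 and 109, a log2 change of -1.24. By FPKM its rank among the 58174 genes in PANC-1 cells was 163 before and 478 after radiation. In SW1990 cells SCD had 1321 and 1757 counts, a log2 change of 0.41 (0.30 to 0.51), at ranks 6669 and 5333. SCD (ENSG00000099194) lies on chromosome 10 from 100347124 to 100364834 on the plus strand and overlaps no other expressed gene of the table.

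Across the 6 fatty acid enzymes the median log2 change was 0.31 in SW1990 cells, with 5 higher and 1 lower, and -0.11 in PANC-1 cells, with 2 higher and 4 lower. The PANC-1 median was -0.26 from FPKM and -0.044 with scaling by total counts. FASN had 15708 and 20999 counts in SW1990 cells, a log2 change of 0.41 (0.38 to 0.44), and 15421 and 12345 counts in PANC-1 cells, a log2 change of -0.17 (-0.21 to -0.14). ACLY, which releases acetyl-CoA from citrate, had log2 changes of 0.26 (0.20 to 0.32) and -0.06 (-0.11 to -0.01). ACACA, the carboxylase that makes malonyl-CoA, had 0.29 (0.24 to 0.35) and -0.31 (-0.37 to -0.25). It overlaps the expressed genes AC244093.1 and HMGB1P24 on the same strand, whose reads cannot be told apart from its own with certainty. FASN, ACLY and ACACA were well counted, so their intervals are narrow. Each of these enzymes was higher in SW1990 and lower in PANC-1 cells by less than 1.5-fold. The exceptions were ACLY in PANC-1 cells, at 0.01 with scaling by total counts, and ACACA in SW1990 cells, lower by FPKM. ACSS2, which makes acetyl-CoA from acetate, differed from them. It had 582 and 736 counts in SW1990 cells, a log2 change of 0.33 (0.17 to 0.49), and 176 and 270 counts in PANC-1 cells, a log2 change of 0.77 (0.49 to 1.05), which passed 1.5-fold. From FPKM (6.79 and 8.85) its change in PANC-1 cells was 0.38, under 1.5-fold. ACSS2 (chromosome 20 from 34872146 to 34927962) overlaps GGT7 on the opposite strand. ELOVL6, an elongase of saturated fatty acids, had -0.21 (-0.34 to -0.07) in SW1990 and 0.16 (-0.01 to 0.33) in PANC-1 cells.

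The change in SW1990 minus that in PANC-1 cells was then taken for each of the 29 members, with an interval from the 4 counts. The interval lay wholly above 0 for 18 members and below 0 for 5, and it held 0 for 6. These interval counts were not made over all genes, so they carry no comparison. The median difference was 0.37 on the log2 scale, against 0.00 for all genes tested in both lines. By role the medians were 0.29 for sterol enzymes, 0.53 for regulators and 0.45 for fatty acid enzymes. SCD had a difference of 1.70 (1.60 to 1.81), INSIG2 of 1.27 (0.76 to 1.79), EBP of 1.17 (0.94 to 1.40) and DHCR7 of 0.93 (0.78 to 1.07). On the other side stood HSD17B7 with -0.54 (-0.96 to -0.12), ACSS2 with -0.43 (-0.75 to -0.12) and PMVK with -0.41 (-0.71 to -0.12). For INSIG2, ACSS2, ELOVL6 and IDI1 the sign turned with FPKM. The FPKM changes in SW1990 and PANC-1 cells were 0.12 and 0.34 for INSIG2 and 0.55 and 0.38 for ACSS2. They were -0.02 and -0.27 for ELOVL6, whose difference by counts was -0.37 (-0.58 to -0.16). For IDI1 they were 0.21 and 0.38, with a difference by counts of 0.03 (-0.19 to 0.25). With 4 libraries no residual freedom is left for this difference, and it was not tested.

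Counts and FPKM did not always give the same change. The log2 changes from the 2 measures had different signs for 9 members in SW1990 and 4 in PANC-1 cells, and they differed by over 0.3 for 6 and 4 members. In SW1990 cells the gap was widest for INSIG2, at 1.09 from counts and 0.12 from FPKM. ACACA had 0.29 from counts and -0.22 from FPKM, HMGCS1 had 0.55 and 0.10, DHCR7 had 0.37 and -0.02, and STARD4 had 0.05 and -0.33. In PANC-1 cells INSIG2 had -0.18 and 0.34, LSS had -0.45 and 0.03, ELOVL6 had 0.16 and -0.27, and ACSS2 had 0.77 and 0.38. SCD and TM7SF2 of PANC-1 cells were close by both measures. With the fold change from FPKM, the member called in SW1990 cells was MVK (5.12 and 2.48 FPKM, a log2 change of -1.05) in place of INSIG2, while SCD was called in PANC-1 cells as before. Past 1.5-fold by FPKM were INSIG1 and MVK in SW1990 cells and DHCR7, HSD17B7, SCD and TM7SF2 in PANC-1 cells, so that EBP, INSIG2 and ACSS2 were past it by counts only.

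**Figure D3:**
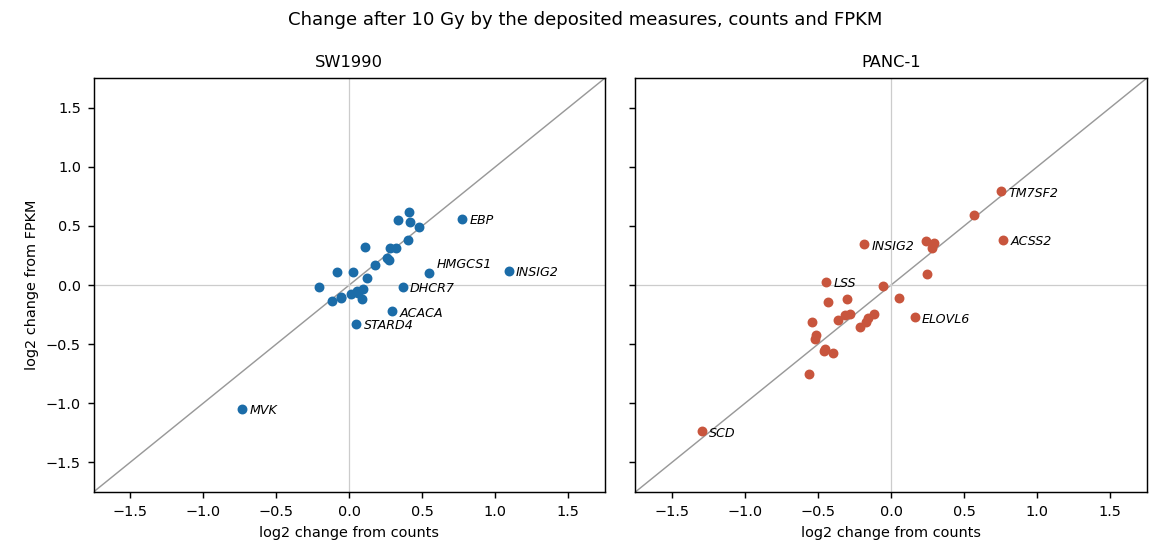
The log2 change after radiation from counts (horizontal axis) against that from FPKM (vertical axis), with 1 point per tested gene and a line of equal values. Named genes passed 1.5-fold or differed by over 0.3 between the measures. INSIG2 in SW1990 cells lies far below the line, and SCD in PANC-1 cells lies on it.

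To ask for changes shared by the lines, all 4 libraries were fitted with edgeR's quasi-likelihood test, with the lines as the replicates and 1 residual degree of freedom. No gene of 18180 passed an adjusted p of 0.05, a share of 0%, and 833 genes had an unadjusted p below 0.05, or 4.58%. DESeq2 called 39 genes and limma called 1. Of the 30 members 3 had an unadjusted p below 0.05. They were TM7SF2, MVK and ACSS2, with mean log2 changes of 0.62, -0.63 and 0.55, each at an adjusted p of 0.936 by the edgeR test.

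Between the lines far more genes passed. In the same kind of fit for cell line, with treatment as covariate, 7921 of 18180 genes passed an adjusted p of 0.05, or 43.6%, with 21.4% higher in SW1990 and 22.2% higher in PANC-1 cells. Of the 30 members 11 passed, or 36.7%, with 6 higher in SW1990 and 5 higher in PANC-1 cells. This share was not above that of all genes. The 2 libraries of a line are 1 of each treatment, so the spread in this fit is the difference of response between the lines and not that between cultures.

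SCD and STARD4 stood at the ends. SCD was lower in SW1990 than in PANC-1 cells by a log2 difference of -3.88 (adjusted p = 0.00506), with scaled counts (CPM, relative to the TMM-scaled library size) of 69.0 and 92.8 in SW1990 and 1856 and 750 in PANC-1 cells. STARD4 was higher in SW1990 cells by 3.98 (adjusted p = 0.00184), with 24.1 and 25.3 CPM against 1.16 and 2.05 CPM. For both genes the libraries of the lines did not overlap. Also higher in SW1990 cells were ACSS2 by 1.69 (adjusted p = 0.00517), FDFT1 by 1.51 (0.00278), TM7SF2 by 0.94 (0.0229), ELOVL6 by 0.76 (0.0265) and SCAP by 0.68 (0.0175). Higher in PANC-1 cells were PMVK, the kinase after MVK, by a log2 difference of -1.54 (adjusted p = 0.00594), SREBF1 by -1.31 (0.00651), MVK by -1.26 (0.0138) and NSDHL, a dehydrogenase of the demethylation steps, by -0.98 (0.0160). SREBF1 had 60.9 and 59.5 CPM in SW1990 and 179 and 125 in PANC-1 cells, and SREBF2 had 161 and 175 against 136 and 98.1, a log2 difference of 0.54 that did not pass (adjusted p = 0.0786). FASN also did not pass, with a log2 difference of 0.50 (adjusted p = 0.0973), though both passed in some alternatives.

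Leaving out the unirradiated PANC-1 library kept 6 of the 11 members and lost ELOVL6, MVK, NSDHL, SCAP and TM7SF2. Without the irradiated SW1990 library MVK, SCAP and TM7SF2 were lost, without the unirradiated SW1990 library ELOVL6 and TM7SF2, and without the irradiated PANC-1 library MVK. TM7SF2 was also lost with DESeq2 and without the treatment covariate, ELOVL6 without a filter on counts, and MVK with limma on FPKM. Gained were SREBF2 without the unirradiated PANC-1 library, FASN without the unirradiated SW1990 library and with DESeq2, DHCR7 without the irradiated PANC-1 library, and HMGCS1, LSS and SREBF2 with limma. STARD4, SCD, ACSS2, FDFT1, PMVK and SREBF1 passed in each of these fits. In unirradiated cells alone the log2 difference of SCD was -4.75, and in irradiated cells alone it was -3.01.

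**Figure D4:**
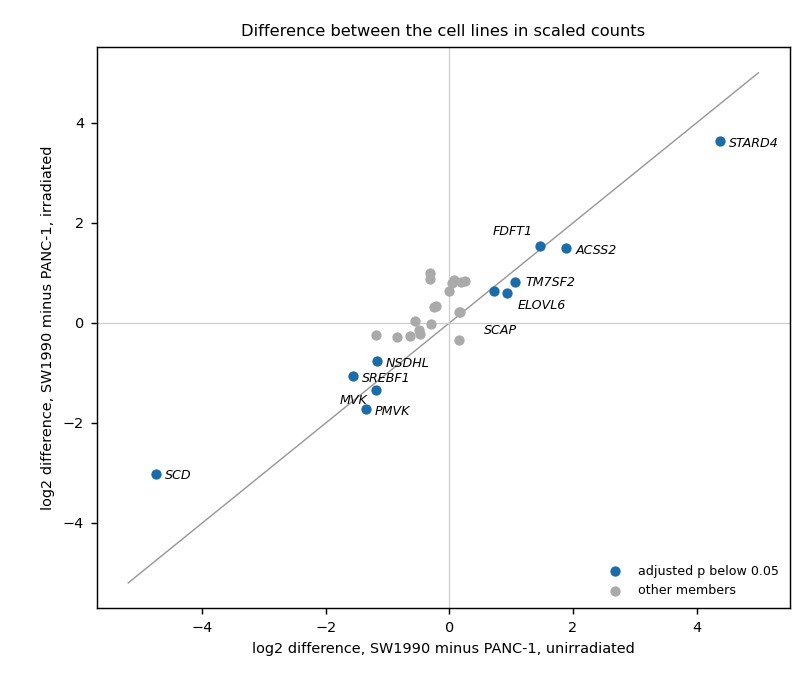
The log2 difference in scaled counts, SW1990 minus PANC-1, in unirradiated (horizontal axis) and irradiated cells (vertical axis), with 1 point per gene and a line of equal values. Blue points passed an adjusted p of 0.05 in the fit of 4 libraries. STARD4 and SCD lie at opposite ends, and most grey points lie above the line.

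A further 67 genes of the pathway were listed, in 4 lists, to see whether the 30 members stood alone. In SW1990 cells 58 of them were tested, 37 higher and 21 lower, with a median log2 change of 0.07, and in PANC-1 cells 57, 26 higher and 31 lower, with a median of -0.04. Past 1.5-fold were 3 higher and 1 lower in SW1990 cells (6.90%) and 1 higher and 5 lower in PANC-1 cells (10.5%), again near the shares of all genes. By list the medians in SW1990 and PANC-1 cells were -0.10 and -0.04 for other sterol synthesis (11 tested), -0.08 and -0.14 for SREBP processing and degradation (10 tested), 0.17 and 0.01 for sterol uptake, transport, storage and efflux (15 tested), and 0.07 and -0.15 for other fatty acid genes (22 and 21 tested).

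In PANC-1 cells the widest difference was in the list of SREBP processing and degradation. TRIB3, a stress-induced pseudokinase linked to degradation of the carboxylase ACACA, had 3897 counts without and 907 with radiation, a log2 change of -1.95 (-2.06 to -1.85), against 1286 and 1055 counts and -0.29 in SW1990 cells. LPIN1, a phosphatidate phosphatase of triglyceride synthesis, had 1974 and 763 counts in PANC-1 cells, a log2 change of -1.22 (-1.34 to -1.10), and MID1IP1, an activator of the carboxylase, had 868 and 388 counts, a log2 change of -1.01 (-1.19 to -0.84). IDH1, which supplies NADPH in the cytosol, had 1917 and 997 counts, a log2 change of -0.79 (-0.91 to -0.68). LPIN1 was not lower in SW1990 cells, where it had 466 and 586 counts. FNTA, a subunit of protein farnesyltransferase, had 359 and 151 counts in PANC-1 cells, a log2 change of -1.10 (-1.38 to -0.82), but -0.03 from FPKM. PAQR3, a Golgi protein that anchors SCAP, passed 1.5-fold in both lines, with 316 and 512 counts in SW1990 cells (0.69, 0.49 to 0.90) and 293 and 414 in PANC-1 cells (0.65, 0.43 to 0.87), though by FPKM its change in SW1990 cells was 0.15 and it overlaps BMP2K on the opposite strand. AGPAT2, an acyltransferase of phospholipid synthesis, had 432 and 658 counts in SW1990 cells, a log2 change of 0.60 (0.42 to 0.78), and 1.16 from FPKM. FADS2, a desaturase of polyunsaturated fatty acids, had 173 and 109 counts in the same cells, a log2 change of -0.67 (-1.03 to -0.32), and -1.03 from FPKM. FADS2 overlaps FEN1 on the same strand, whose reads cannot be told apart with certainty, and FADS1 on the opposite strand.

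Between the lines 36 of the 63 further genes in the fit passed an adjusted p of 0.05 (57.1%, against 43.6% of all genes), 22 higher in SW1990 and 14 higher in PANC-1 cells. The fatty acid list held 19 of them, among 25 genes. SCD5, a relative of SCD, had 475 and 631 counts in SW1990 and 32 and 50 in PANC-1 cells, a log2 difference of 3.87 (adjusted p = 0.00128), opposite in sign to SCD. FADS2 had 173 and 109 counts in SW1990 against 2552 and 1565 in PANC-1 cells, a log2 difference of -3.75 (adjusted p = 0.000804), and FADS1 a log2 difference of -2.71 (adjusted p = 0.00172). ELOVL5 and ELOVL2, elongases of polyunsaturated fatty acids, were listed at 0 counts in both SW1990 libraries, with 3888 and 2682 counts for ELOVL5 and 2258 and 2273 for ELOVL2 in PANC-1 cells. ELOVL7 was the reverse, with 587 and 661 counts in SW1990 and 31 and 31 in PANC-1 cells, a log2 difference of 4.43. ACSL5, which activates fatty acids, had 1208 and 1491 counts in SW1990 and 46 and 57 in PANC-1 cells, a log2 difference of 4.81 (adjusted p = 0.000804). MLXIPL, which encodes the glucose-responsive factor ChREBP, had 682 and 616 counts in SW1990 and 16 and 25 in PANC-1 cells, a log2 difference of 5.09. ABCA1, the cholesterol exporter, had 10 and 40 counts in SW1990 and 730 and 575 in PANC-1 cells, a log2 difference of -4.71 (adjusted p = 0.00507).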

How the data were processed

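For each gene and library the authors deposited a read count beside an FPKM value. The submitters' processing notes name CASAVA 1.8, FastQC 0.11.2, Trimmomatic 0.36, HISAT2 2.0, StringTie 1.3.3b, DESeq2 1.12.4 and the build GRCh38. The deposited counts are not normalized, and their counting tool is not given in the sources used here. The authors computed the deposited FPKM values with StringTie. The labels name both removal of rRNA and an mRNA kit. Rows that name no gene (1089, 0.453% to 0.635% of counts) were left out, and 27 names turned into dates were restored.

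Pairs of libraries were compared with edgeR 4.0.16 in R 4.3.3 (exactTest at dispersion 0, TMM, Benjamini-Hochberg), after the thresholds of the study, with a value of 0 set to 0.01. The study itself lists DESeq2 for the pairs. The 4 libraries were fitted with edgeR's quasi-likelihood test after filterByExpr, and with DESeq2 1.42.0 and limma 3.58.1 as alternatives. Adjusted p-values run over all genes in the fit. Changes carry Clopper-Pearson intervals of the counts, and differences of changes carry normal intervals, both covering counting error only. The read tests of the pairs and the edgeR fit for cell line were tried on simulated data. The simulated pairs held counting error only. The fit of radiation over both lines and the alternatives were not tried in this way. The members, lists and markers were chosen with earlier results of these data known. Members past 1.5-fold, members that differ between lines and all regulators are given in full, and further pathway genes are named only where they pass a threshold.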

Additional observations from a re-analysis of the deposited data

Results flagged for a closer look

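For 10 members the counting interval of the log2 change lay above 0 in SW1990 and below 0 in PANC-1 cells. The same count over all genes was not made, so whether it is large for 29 members is not known. The difference itself was not tested, since each line has 1 library per condition. The log2 change in SW1990 minus that in PANC-1 cells was 1.70 for SCD, 1.17 for EBP, 0.93 for DHCR7, 0.77 for HMGCS1, 0.72 for LSS, 0.61 for ACACA, 0.58 for FASN, 0.55 for SREBF2, 0.54 for FDPS and 0.32 for ACLY. With fold changes from FPKM, 6 of the 10 were still on opposite sides of 0, and DHCR7, LSS, ACACA and SREBF2 were not. ACLY in PANC-1 cells turned to 0.01 with scaling by total counts.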

How the results depend on the processing

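The labels carry no replicate numbers, and the fit over both lines, with line as a term, was the paired comparison of irradiated with unirradiated cells. A minimum of 5 FPKM gave 306 calls in SW1990 and 318 in PANC-1 cells, and 0 members in SW1990 cells, where INSIG2 was then not tested. A limit of 1.5-fold gave 1456 and 1790 calls and 3 members in each line, and 2-fold with no q-value gave 1512 and 1386 calls. The median change of fatty acid enzymes in PANC-1 cells was -0.044 with scaling by total counts and -0.26 from FPKM, and that of the regulators was -0.29 with at least 5 FPKM. Members higher in SW1990 and lower in PANC-1 cells numbered 9 from FPKM, an alternative chosen after seeing the data, as was a binomial test without equalized library sizes, which left the counts of members as they were. The cause of these shifts was not tested. Radiation calls over both lines were 39 by DESeq2 and 1 by limma. Members that differed between lines numbered 7 to 11 with 1 library left out and 10 to 13 by other tools, filters and covariates. INSIG2 lost its call with the fold change from FPKM, and none of the called members changed direction. At these depths a count of 3 corresponds to 0.128 to 0.167 CPM relative to total counts, without the TMM scaling used above. The precision of a change is set by the missing replicates, which counting intervals do not cover.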
